A study of Mus musculus with 6 samples.

Results

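The genes examined are the secreted and cell-surface metalloproteases that cut extracellular matrix, their non-catalytic relatives and their inhibitors. They were taken by symbol, as every ADAMTS, ADAMTS-like, MMP and TIMP gene of the expression table. These families were picked with earlier results of these data known. There are 51 such genes among 24749 in the table, namely 19 ADAMTS, 5 ADAMTS-like, 23 MMP and 4 TIMP genes. They were measured by RNA sequencing of whole mouse kidneys at E15.5 (the embryonic day), in 3 libraries labelled Foxd1cre; Yapc/c;Tazc/c and 3 labelled wild-type and Cre negative. In the first group a Cre driven from Foxd1, the gene that marks the stromal progenitors of the kidney, acts on loxP-flanked alleles of Yap1 and of Wwtr1, which encodes TAZ. These libraries are called knockout here, although Cre acts in the stromal lineage and every cell of the organ gave RNA. The strain is labelled mixed for all 6 libraries. The labels do not say whether the wild-type kidneys carried floxed alleles, nor whether a library is 1 embryo, so every p-value measures library-to-library spread, part of which may be technical.

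ADAMTS proteases are secreted and bind matrix through thrombospondin repeats, and they cut proteoglycans such as versican, remove the amino-terminal propeptides of fibrillar collagens or act near fibrillin microfibrils. ADAMTS-like proteins hold the same repeats without a protease domain. MMPs cut collagens, laminin and other matrix proteins and are made as inactive precursors, and TIMPs bind the active site of MMPs, with TIMP3 also inhibiting several ADAMTS and ADAM proteases. YAP and TAZ have no DNA-binding domain and act mainly through TEAD factors.

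Levels are the deposited FPKM values, that is fragments relative to transcript length and to library size. Depth, approximated from the lowest values of genes with 1 annotated transcript, lay between 12700000 and 15500000 fragments per library, and 1 fragment on a transcript of 2 kb was worth 0.0323 to 0.0394 FPKM. A gene was tested, on log2(FPKM + 1), where its mean over the 6 libraries reached 0.5 FPKM, and it was called at an adjusted limma p under 0.05. Of the floxed genes, Wwtr1 was called lower, from 18.8 ± 1.26 to 12.9 ± 0.635 FPKM (SD, n = 3 per genotype, as for all later values), with a log2 change of -0.51 and adjusted p = 0.0235. Leaving out wild-type library 2, or any 1 of the knockout libraries, ended that call (limma adjusted p between 0.0663 and 0.115). Yap1 measured 51.0 ± 4.95 and 45.4 ± 2.94 FPKM, log2 -0.16 with limma adjusted p = 0.378, and did not pass. Kidney markers were present in every library, among them the nephron progenitor gene Cited1 and the podocyte gene Wt1. Wild-type library 3 stood apart in genes of neighbouring tissues: its 5 skeletal muscle markers summed to 58.3 FPKM, against 1.09 to 10.8 FPKM elsewhere, and its 6 nerve and glia markers to 29.9 FPKM, against 6.50 to 9.63 FPKM. Among the 36 tested protease and inhibitor genes it was the highest library for 13, and wild-type library 1 was the lowest for 10.

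The RefSeq promoter table (GRCm38.p6, windows from 250 bases before to 50 bases after an annotated start) matched 36 of the 51 genes with 39 windows. Because YAP and TAZ act through TEAD factors, the TEAD core motif GGAATG was searched on both strands (CATTCC on the other strand), with no other motif. It lay in 2 of the 39 windows (5.13%), against 4817 of 32851 windows in the whole table (14.7%). The 2 windows are shown because they are the only member windows that hold it, with the motif in capitals. Timp1 lies at chrX:20869916-20870215 on the plus strand, and its motif begins 247 bases before the start. Adamts13 lies at chr2:26973166-26973465 on the plus strand, and its motif, on the opposite strand, begins 50 bases before the start.
Timp1: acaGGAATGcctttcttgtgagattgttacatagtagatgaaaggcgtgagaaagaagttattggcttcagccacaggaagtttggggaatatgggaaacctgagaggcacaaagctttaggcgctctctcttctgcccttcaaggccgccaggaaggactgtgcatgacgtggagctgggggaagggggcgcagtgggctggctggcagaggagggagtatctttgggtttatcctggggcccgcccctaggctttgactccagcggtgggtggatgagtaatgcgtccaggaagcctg
Adamts13: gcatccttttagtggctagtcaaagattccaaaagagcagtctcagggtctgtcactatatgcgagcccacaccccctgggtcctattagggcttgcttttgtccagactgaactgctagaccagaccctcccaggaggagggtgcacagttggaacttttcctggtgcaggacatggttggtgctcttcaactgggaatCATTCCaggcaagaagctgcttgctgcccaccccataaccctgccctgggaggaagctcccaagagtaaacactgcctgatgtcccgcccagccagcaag
Neither gene was called. Timp1 had a log2 change of 0.02 and Adamts13 of -0.15. A match is a description of letters and not a binding site, and Adamts5 and Adamtsl1, described next, have no entry in the table.

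In the comparison of knockout with wild-type kidneys, 2 of the 36 tested genes were called, Adamts5 and Adamtsl1, and both fell, to 35.2% and 31.3% of the wild-type level. That is 5.56% of the members tested, against 0.734% of 16899 genes tested overall. Since the families were picked with earlier results of these data known, the contrast is a description and not independent evidence. Lower calls were 2 of 36 against 0.604% of all genes, and higher calls 0 of 36 against 0.130%, with 2 members higher at an unadjusted limma p under 0.05. At that unadjusted threshold stood 10 members (27.8%), 8 lower and 2 higher, against 16.1% of all genes. The libraries of the genotypes did not overlap for 13 members (36.1%), 8 lower and 5 higher, against 24.3% of all genes. The median log2 change was -0.02 among members and -0.00 among all genes tested. Without wild-type library 3 the called members were again Adamts5 and Adamtsl1, and 10 of the 34 then tested had an unadjusted p under 0.05. In whole-organ RNA, fewer cells of a type and less RNA per cell cannot be told apart.

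Abundance differed widely within each family, and of the most abundant gene of each family only Adamtsl1 was called. Adamts9 held 33.7% of the summed ADAMTS level and, with Adamts1, 56.0%. Adamtsl1 held 61.1% of the ADAMTS-like sum, Mmp2 29.1% of the MMP sum and Timp3 61.9% of the TIMP sum, each over all 6 libraries. Mean levels above 10 FPKM were found for 12 members, while 15 members fell under 0.5 FPKM and were not tested. The plot of levels shows every library.

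**Figure D1:**
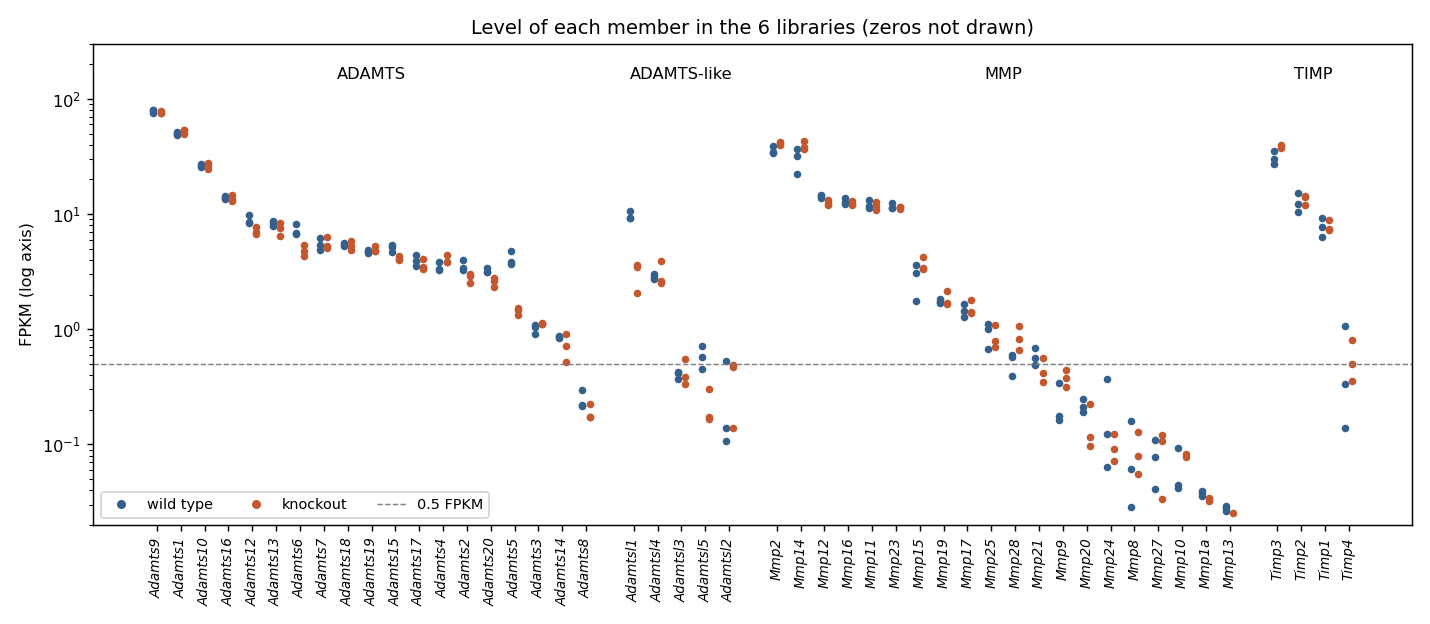
FPKM (log axis) of each member in the 3 wild-type and 3 knockout libraries, 1 point per library, ordered by mean level within each family, with the 0.5 FPKM limit for testing dashed. Adamts9 and Adamts1 lead the ADAMTS genes near 77.2 and 51.2 FPKM, and Adamts5 and Adamtsl1 show the widest gap between genotypes among the genes above the limit.

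Adamts5 (chromosome 16, 85856173 to 85901828, minus strand, GRCm38) encodes the main aggrecan-cutting protease of mouse cartilage, which also cuts versican. It measured 3.69, 3.84 and 4.78 FPKM in wild-type libraries 1, 2 and 3, and 1.46, 1.34 and 1.53 FPKM in knockout libraries 1, 2 and 3. Every knockout library lay under every wild-type library by more than 2 FPKM, and the knockout libraries lay close together. The means were 4.10 ± 0.593 and 1.44 ± 0.0946 FPKM, so the knockout level was 35.2% of wild type, with a log2 change of -1.06 (SE 0.11, 95% confidence interval -1.31 to -0.80, limma adjusted p = 0.00715). The gene was called again when any 1 library was left out (log2 -1.11 to -0.96, adjusted p between 0.0126 and 0.0425). Wild-type library 3 was the highest, and without it the log2 change was -0.96.

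Adamts1, another proteoglycan-cutting member, whose loss in mice is known to disturb the ureter and renal pelvis, lies 53.1 kb from Adamts5 on the same chromosome and strand. Its level was 48.8, 51.2 and 49.8 FPKM in wild-type libraries, and 53.8, 49.4 and 54.0 FPKM in knockout libraries, which overlapped (log2 0.07, SE 0.06, interval -0.06 to 0.19, adjusted p = 0.589). Per library, log2(FPKM + 1) of Adamts5 minus that of Adamts1 was -3.41, -3.43 and -3.14 in wild-type and -4.48, -4.43 and -4.44 in knockout kidneys. Such a difference is called a log2 ratio here, and it is not the log2 ratio of the FPKM values themselves. For Adamts1 its group means differed by -1.12, which restates the change of Adamts5 relative to a neighbour whose libraries overlapped. The log2 ratio of Adamts5 to Adamts4, the other well-known aggrecanase, differed by -1.22, and that to Adamts9 by -1.02. These pairs were chosen after the values were seen, so they are given as a description and no test of them is used. Of 6 pairs formed in all, the log2 ratio of Timp3 to Timp2 overlapped between genotypes.

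The other proteoglycan-cutting members did not pass the test. Adamts9, which carries a GON domain and cuts versican, was the most abundant of all 51 genes. It measured 75.6, 79.5 and 79.5 FPKM in wild-type libraries, and 74.9, 78.1 and 75.6 FPKM in knockout libraries, so that the genotypes overlapped. Its log2 change was -0.04 (SE 0.05, interval -0.15 to 0.08, adjusted p = 0.747). Adamts15 had 4.70, 5.14 and 5.34 FPKM in wild-type libraries, and 4.06, 4.32 and 3.96 FPKM in knockout libraries. All knockout values lay under all wild-type values by a small margin (log2 -0.24, SE 0.08, adjusted p = 0.227). Adamts20, the GON-domain relative of Adamts9 that is mutated in belted mice, had 3.42, 3.15 and 3.12 against 2.81, 2.32 and 2.62 FPKM, again without overlap (log2 -0.24, SE 0.09, adjusted p = 0.268). Adamts4 measured 3.50 ± 0.301 and 4.04 ± 0.336 FPKM with overlapping libraries, and Adamts8 stayed between 0.173 and 0.296 FPKM, under the limit for testing.

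Among the procollagen N-proteinases, which trim the amino ends of fibrillar procollagens, 0 of 3 were called. Adamts2 alone had an unadjusted limma p under 0.05, as did 16.1% of all genes tested. Adamts2 had 3.25, 3.42 and 3.97 FPKM in wild-type libraries, and 3.00, 2.53 and 2.87 FPKM in knockout libraries. The genotypes were apart by a narrow margin, and wild-type library 3 was the highest (log2 -0.26, SE 0.10, adjusted p = 0.276). Adamts3 (1.01 ± 0.0944 and 1.12 ± 0.0202 FPKM) and Adamts14 (0.857 ± 0.0182 and 0.715 ± 0.195 FPKM) were low. All knockout values of Adamts3 lay above all its wild-type values by a small margin, while Adamts14 overlapped.

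Adamts12 and Adamts7, paralogs that cut cartilage oligomeric matrix protein, were both detected. Adamts12 had 8.55, 8.44 and 9.82 FPKM in wild-type libraries, and 7.75, 6.71 and 6.99 FPKM in knockout libraries, without overlap (log2 -0.29, SE 0.09, adjusted p = 0.196). Adamts7 had a log2 change of 0.01, from 5.53 ± 0.675 and 5.58 ± 0.693 FPKM. Adamts13, which cuts von Willebrand factor, measured 8.31 ± 0.373 and 7.45 ± 1.00 FPKM.

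Adamts6 and Adamts10 are paralogs tied to fibrillin microfibrils. Adamts6 (chromosome 13, 104287835 to 104496695) had 6.65, 6.81 and 8.20 FPKM in wild-type libraries, and 5.37, 4.29 and 4.75 FPKM in knockout libraries. All knockout libraries lay under all wild-type libraries, and the level was 66.5% of wild type, yet the log2 change of -0.50 (SE 0.11, interval -0.75 to -0.25) did not pass the test (limma adjusted p = 0.101). Adamts10, at 26.4 ± 0.972 and 26.1 ± 1.56 FPKM, had a log2 change of -0.02 (SE 0.06, adjusted p = 0.906), with an interval from -0.16 to 0.12. The log2 ratio of Adamts6 to Adamts10, on FPKM + 1, was -1.79, -1.81 and -1.63 in wild-type and -2.17, -2.35 and -2.15 in knockout libraries. This pair was also chosen after the values were seen. Adamts16, known from developing kidney and gonad, stood at 13.9 ± 0.455 and 13.8 ± 0.889 FPKM (log2 -0.01). Adamts17, Adamts18 and Adamts19 had log2 changes of -0.10, -0.03 and 0.05.

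**Figure D2:**
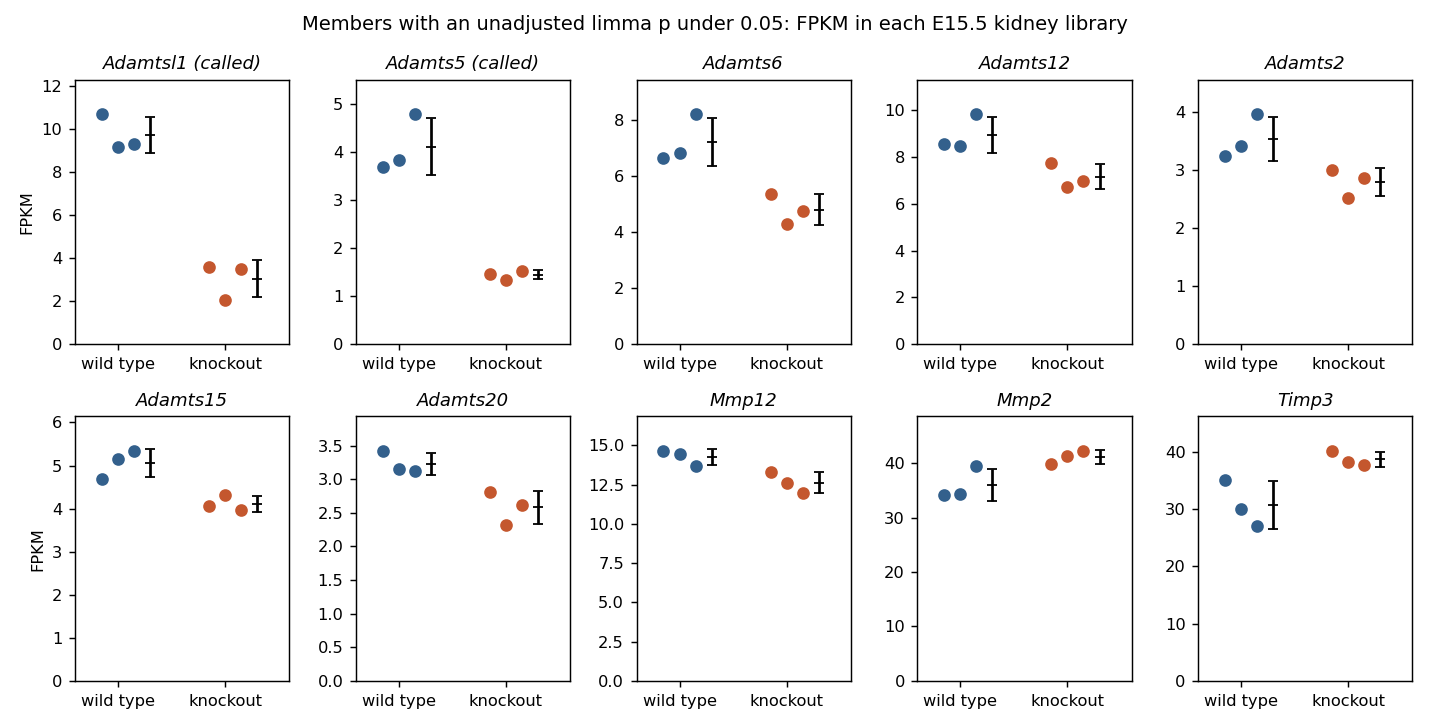
FPKM in each library, 1 panel per gene, for the 10 members with an unadjusted limma p under 0.05, with wild-type libraries in blue, knockout libraries in orange and the mean with SD as a black bar (n = 3 per genotype, axes from 0). Adamtsl1 and Adamts5 are called, and Mmp2 and Timp3 are the 2 with higher knockout values.

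Adamtsl1 (chromosome 4, 85514172 to 86428385, plus strand) encodes punctin, a secreted protein of thrombospondin repeats with no catalytic domain. Its level was 10.7, 9.17 and 9.34 FPKM in wild-type libraries and 3.60, 2.05 and 3.48 FPKM in knockout libraries. The genotypes were far apart, with the lowest wild-type library above 9 FPKM and knockout library 2 the lowest of all. Means of 9.74 ± 0.844 and 3.04 ± 0.861 FPKM put the knockout level at 31.3% of wild type, a log2 change of -1.43 (SE 0.16, interval -1.81 to -1.05, adjusted p = 0.0115). The log2 change lay between -1.53 and -1.24 when any 1 library was left out, and only without wild-type library 2 was the call lost (limma adjusted p = 0.0654).

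The summed ADAMTS-like level was 14.7, 13.2 and 13.7 FPKM in wild-type libraries, and 8.71, 5.28 and 7.23 FPKM in knockout libraries, and Adamtsl1 made up most of it. Adamtsl4, which binds fibrillin and is known from the ciliary zonule of the eye, measured 2.87 ± 0.155 and 3.02 ± 0.757 FPKM (log2 0.04, SE 0.14, adjusted p = 0.906), with the genotypes overlapping. The log2 ratio of Adamtsl1 to Adamtsl4 on FPKM + 1, likewise chosen after the values were seen, differed by -1.47 between the group means. Adamtsl5 was under the limit for testing at a mean of 0.397 FPKM, with 0.716, 0.453 and 0.572 FPKM in wild-type libraries, and 0.174, 0.165 and 0.304 FPKM in knockout libraries. Those libraries did not overlap, and the knockout mean was 36.9% of wild type. When the limit was dropped, the log2 change of Adamtsl5 was -0.38 (limma adjusted p = 0.150), on a scale that understates the change of low genes. Adamtsl2 ranged from 0.107 to 0.531 FPKM and Adamtsl3 from 0.336 to 0.552 FPKM.

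Markers of several cell types differed beside these 2 genes. Of 10 stroma and mural cell markers, all tested, limma called Acta2 lower, against 0.734% of all genes called. At an unadjusted p under 0.05, 6 were lower and 0 higher, against 16.1% of all genes in either direction. Foxd1, the gene that drives the Cre, stood at 58.9% of wild type (log2 -0.65, adjusted p = 0.0886), Ren1, of renin cells, at 21.6% (log2 -2.07, adjusted p = 0.0886) and Rgs5, of pericytes, at 75.0%, each without overlap and none called. Only the knockout libraries carry the Foxd1 Cre, and the part of that allele in the Foxd1 value was not tested. Cspg4 (103% of wild type), Pdgfrb (83.3%) and Myh11 (71.4%) overlapped between genotypes and were not called. Among markers of broader stroma, Meis1 was lower without overlap (log2 -0.15, adjusted p = 0.189), while Pdgfra (log2 0.14) and Tcf21 (log2 -0.04) overlapped. The list summed to 358 to 399 FPKM in wild-type libraries, and 298 to 311 FPKM in knockout kidneys, and 0 of its markers were listed at 0. The largest falls in FPKM within the sum were those of Ren1 (49.1 to 10.6 FPKM) and Acta2 (35.2 to 19.3 FPKM). Ren1 itself ranged from 32.2 to 65.8 FPKM among wild-type libraries. Pdgfra (63.0 and 69.8 FPKM) and Cspg4 (10.8 and 11.1 FPKM) had higher knockout means. Ureteric bud and collecting duct markers summed to 120 to 125 FPKM in wild type and 140 to 146 FPKM in knockout, with 3 of 6 higher at an unadjusted p under 0.05. Mast cell and neutrophil markers summed to 9.11 to 12.4 FPKM in wild type and 7.06 to 7.57 FPKM in knockout, with 3 of 4 tested lower by that measure, and Elane was listed at 0. Cartilage and bone markers, of tissues in which Adamts5 is well known, summed to 4.97 to 6.74 FPKM in wild type and 7.68 to 10.4 FPKM in knockout, mostly from Col2a1, with 4 of 6 under the limit for testing. The part of any of these markers in the Adamts5 and Adamtsl1 values was not tested.

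**Figure D3:**
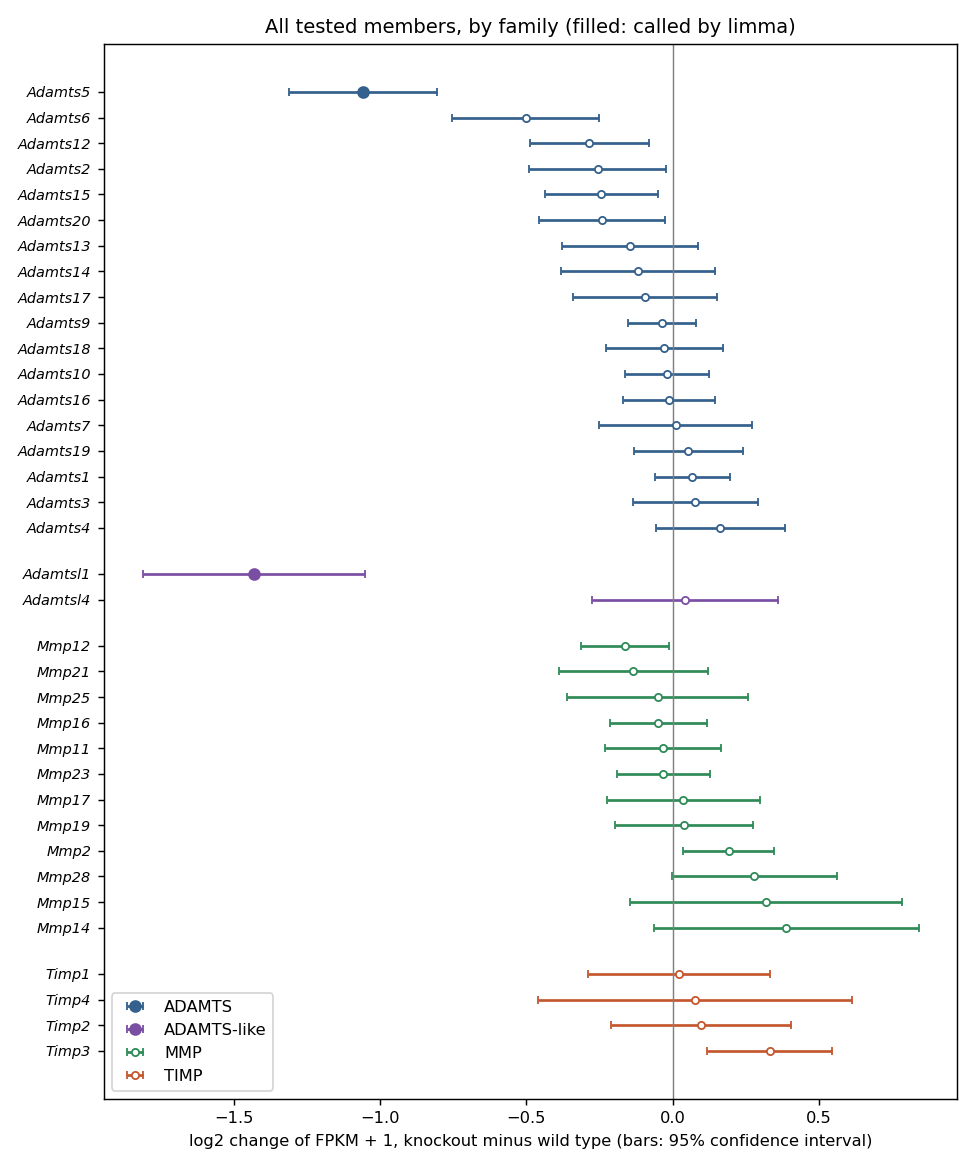
Log2 change of FPKM + 1 (knockout minus wild type) with its 95% confidence interval for the 36 tested members by family, filled where called by limma. Adamts5 (-1.06) and Adamtsl1 (-1.43) lie apart from all other members, the next being Adamts6 (-0.50), and the 4 TIMP genes lie above 0 (0.02 to 0.33).

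Of 23 MMP genes 12 were tested and 0 were called, against 0.734% of all genes. At an unadjusted limma p under 0.05, 1 was lower and 1 higher, 16.7% of those tested against 16.1% of all genes. The median log2 change of the tested MMP genes was 0.00. Mmp2, gelatinase A, was the most abundant, at 34.1, 34.4 and 39.4 FPKM in wild-type libraries, and 39.8, 41.3 and 42.2 FPKM in knockout libraries. Knockout libraries lay above all wild-type libraries, although knockout library 1 exceeded wild-type library 3 by little (log2 0.19, SE 0.07, adjusted p = 0.241). Mmp14, the membrane-anchored protease that activates the Mmp2 precursor, had 22.4, 32.2 and 36.4 FPKM in wild-type libraries, and 43.1, 36.7 and 38.2 FPKM in knockout libraries. All knockout libraries lay above all wild-type libraries, although knockout library 2 exceeded wild-type library 3 by little. Wild-type library 1 was the lowest by far, and the log2 change of 0.39 (SE 0.18, adjusted p = 0.370) became 0.19 without that library. Mmp15, a further membrane-anchored member, was also lowest in wild-type library 1 (1.74 FPKM, against 3.10 to 4.28 FPKM elsewhere). Mmp16, Mmp11 and Mmp23 had mean levels of 11.6 to 12.6 FPKM and log2 changes of -0.05, -0.03 and -0.03.

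Mmp12, the elastase of macrophages, had 14.7, 14.4 and 13.7 FPKM in wild-type libraries, and 13.3, 12.6 and 12.0 FPKM in knockout libraries. The genotypes did not overlap, but the nearest libraries differed by under 1 FPKM (log2 -0.16, SE 0.06, adjusted p = 0.283). Of 6 macrophage markers 0 were called by limma and 0 had an unadjusted p under 0.05, against 16.1% of all genes. Ptprc (82.7% of wild type) and Csf1r (85.3%) were lower without overlap, and Mmp12 itself was at 88.6%. The libraries overlapped for the other markers of the list, namely Adgre1 (102% of wild type), Cd68 (100%), Lyz2 (95.6%) and C1qa (92.6%). The sum of the list ranged from 28.4 to 32.1 FPKM in wild-type libraries, and 27.8 to 29.8 FPKM in knockout kidneys. Their part in the Mmp12 value was not tested. Mmp12 shares exon sequence with Mmp1b on the opposite strand, and Mmp1b was listed at 0 in all 6 libraries.

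Mmp12 belongs to a cluster of 10 MMP genes on chromosome 9 (7272514 to 7699585), and the cluster ends 232 kb before Yap1, 1 of the floxed genes. Mmp12 was the only gene of the cluster above the limit for testing, and the other 9 (Mmp13, Mmp1b, Mmp3, Mmp1a, Mmp10, Mmp8, Mmp27, Mmp20 and Mmp7) did not exceed 0.247 FPKM in any library. Of these, Mmp1b, Mmp3 (stromelysin-1) and Mmp7 (matrilysin) were listed at 0 throughout. The 4 secreted collagenases, namely Mmp1a, Mmp1b, Mmp8 and Mmp13, were thus at or near 0. Outside the cluster, Mmp9 (gelatinase B) ranged from 0.162 to 0.439 FPKM and Mmp24 from 0.0635 to 0.370 FPKM. Mmp28 was low too, with 0.525 ± 0.113 FPKM in wild-type libraries, and 0.854 ± 0.209 FPKM in knockout kidneys, without overlap (log2 0.28, adjusted p = 0.316).

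Of the 4 TIMP genes 0 were called, and Timp3 had a higher value at an unadjusted limma p under 0.05. Timp3 alone makes 25% of the TIMP genes tested, against 16.1% of all genes by that measure. Timp3 (chromosome 10, 86300372 to 86349506), which stays bound to matrix after secretion, had 35.1, 30.0 and 27.0 FPKM in wild-type libraries, and 40.1, 38.3 and 37.6 FPKM in knockout libraries. All knockout libraries were higher, and wild-type library 1 came nearest to them. The means of 30.7 ± 4.12 and 38.7 ± 1.29 FPKM gave a log2 change of 0.33 (SE 0.09, interval 0.12 to 0.55, adjusted p = 0.172). It shares exon sequence with Syn3 on the opposite strand, which unstranded reads would not separate.

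Timp2, which takes part in Mmp2 activation, and Timp1 did not separate the genotypes. Timp2 measured 12.6 ± 2.42 and 13.5 ± 1.21 FPKM (log2 0.10, SE 0.13, adjusted p = 0.750), and Timp1 measured 7.75 ± 1.45 and 7.82 ± 0.881 FPKM (log2 0.02, SE 0.13, adjusted p = 0.954). Timp4 was low and uneven, from 0.138 to 1.06 FPKM among wild-type libraries alone. The summed TIMP level was 52.2, 50.2 and 52.4 FPKM in wild-type libraries, and 62.2, 60.0 and 59.4 FPKM in knockout libraries, mostly Timp3. The summed MMP level was 115, 125 and 138 FPKM in wild-type libraries, and 143, 135 and 139 FPKM in knockout libraries, and the ratio of TIMP to MMP sums overlapped between genotypes (0.379 to 0.454 and 0.428 to 0.445).

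The substrates and partners of these proteases were taken from 6 lists of 84 genes, of which 83 were in the table and 72 were tested. By limma 7 fell and 0 rose, while at an unadjusted p under 0.05 there were 17 below and 9 above wild type, beside 0.734% of all genes called and 16.1% at the unadjusted threshold. All 7 encode matrix proteins or a helper of collagen processing. The lists were drawn up with results for several of these genes known, so they are not independent evidence of a direction.

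Among 20 tested proteoglycan and other matrix substrates 4 were called lower, with a list median of -0.23. Nid1 (nidogen-1, a basement membrane linker that several proteases cut) measured 38.1, 38.0 and 38.5 FPKM in wild-type libraries, and 27.7, 25.9 and 27.4 FPKM in knockout libraries. The wild-type libraries were nearly equal and all knockout libraries lay lower (log2 -0.49, SE 0.05, adjusted p = 0.00702). Bgn (biglycan, log2 -0.97), Fn1 (fibronectin, log2 -0.48) and Fbn1 (fibrillin-1, log2 -0.48) were the others. Vcan, the versican gene and the substrate shared by Adamts1, Adamts5 and Adamts9, had 126, 122 and 118 FPKM in wild-type libraries, and 142, 140 and 140 FPKM in knockout libraries. Its knockout values were higher without overlap, yet at log2 0.20 it missed the threshold (limma adjusted p = 0.145). Acan (aggrecan) and Comp, the cartilage substrates, were under the limit for testing. Leaving out any 1 of the 6 libraries ended the Fbn1 call (limma adjusted p between 0.0575 and 0.157). The Fn1 call ended likewise, except on leaving out wild-type library 1 (otherwise 0.0629 to 0.157).

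Among 14 tested genes of fibrillar collagens and their processing 3 were called lower, with a list median of -0.11. Pcolce, which encodes the enhancer of the carboxy-terminal procollagen proteinase, had 30.3, 28.7 and 31.8 FPKM in wild-type libraries, and 20.3, 19.8 and 20.7 FPKM in knockout libraries, 67.0% of wild type without overlap (log2 -0.55, SE 0.06, adjusted p = 0.00715). Bmp1, that proteinase itself, had a log2 change of 0.21 and was not called (adjusted p = 0.384). The collagen genes Col5a2 (log2 -0.67) and Col3a1 (log2 -0.62) were the other 2, and the Col3a1 call ended on leaving out wild-type library 2, or any 1 of the knockout libraries (limma adjusted p between 0.0629 and 0.116).

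The other 4 lists held 0 called genes. Of 10 tested activating enzymes 2 were lower and 1 higher at an unadjusted limma p under 0.05, and Pcsk5 (a proprotein convertase, log2 -0.25, adjusted p = 0.152) and Plau (urokinase, log2 -0.29, adjusted p = 0.247) had the smallest p. Of 9 tested inhibitors beside the TIMPs 1 was lower and 2 higher by that measure, led by Serpinf1 (log2 0.25, adjusted p = 0.214) and Spock2 (log2 0.31, adjusted p = 0.217). Of 7 genes of secretion and glycosylation 1 was lower and 1 higher. Pofut2, which adds fucose to thrombospondin repeats and is needed for secretion of several ADAMTS proteins, had 21.2, 25.7 and 26.1 FPKM in wild-type libraries, and 30.3, 28.6 and 29.9 FPKM in knockout libraries (log2 0.28, adjusted p = 0.189), with wild-type library 1 lowest. Sec24d, of the coat that carries cargo from the endoplasmic reticulum, had a log2 change of -0.14 (adjusted p = 0.283). Adam12 (log2 -0.32, adjusted p = 0.103) and the heparan sulfate proteoglycan gene Sdc4 (log2 0.20, adjusted p = 0.247) led the 12 tested related metalloproteases and adaptors, again with 1 lower and 1 higher.

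**Figure D4:**
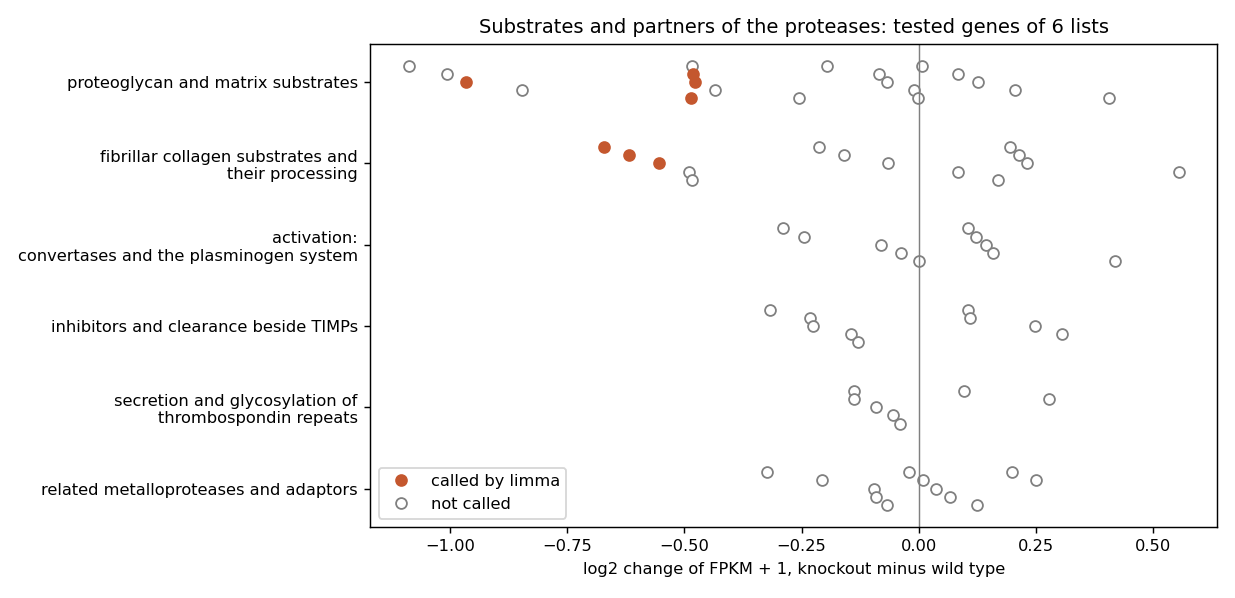
Log2 change of FPKM + 1 (knockout minus wild type) of the 72 tested substrate and partner genes, 1 point per gene in 6 lists, filled where called by limma. The 7 called genes, all lower (log2 -0.97 to -0.48), lie in the 2 lists of matrix substrates and collagens.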

How the data were processed

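RNA from E15.5 mouse kidneys was sequenced in 6 libraries, 3 per genotype, grouped by title. The tools named in the submitters' processing notes are bcl2fastq 2.17.1.14 and Salmon, and the build is GRCm38 (mm10). Salmon's version, the annotation and strandedness are not stated there. The authors deposited 1 table of FPKM values, to which no count model was applied. Symbols came from GENCODE M21 for GRCm38, for 24469 identifiers.

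Values were taken as log2(FPKM + 1), a pseudocount of 1, where a gene's mean reached 0.5 FPKM, and fitted with limma 3.58.1 in R 4.3.3 with genotype as the only term and trended, robust moderation. Log2 changes on this scale understate the change of low genes. Adjusted p is Benjamini-Hochberg over 16899 genes, called under 0.05. The fit was also run on simulated data with independent normal values per gene. That run holds no effects shared within a library, so it is not used as support for the calls. Depth was approximated by taking the commonest value of genes with 1 transcript of at least 2000 bases, within a range set after looking at the values, as 1 fragment. None of the 15 library pairs was identical (0 pairs).

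Members and lists were chosen with earlier results of these data known. Every member could be named. Statistics are printed for members with an unadjusted p under 0.05 and the 3 most abundant of each family, and for the called or otherwise the 2 leading genes of each substrate or partner list. Vcan, Bmp1, Adamtsl5, Mmp15, Mmp28 and A2m were chosen after their values were seen. Alternatives were other scalings, pseudocount, limits on low values, moderation, a replicate block and leaving out each library.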

Additional observations from a re-analysis of the deposited data

How the results depend on the processing

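Adamts5 and Adamtsl1 were both called, lower, under all 6 alternatives of scaling, pseudocount, limit on low values and moderation, with the log2 change of Adamts5 at -1.44 and that of Adamtsl1 at -1.68 under a pseudocount of 0.1. Over all 13 alternatives the adjusted p lay between 0.0051 and 0.0559 for Adamts5 and between 0.00944 and 0.0654 for Adamtsl1. With the replicate number as a block 1 member was called, and 1 lower, since Adamts5 had adjusted p = 0.0559; without 1 library at a time 1 to 2 were called, all lower. Deviations of same-numbered libraries from their group means had correlations of 0.02, -0.04 and 0.05. Those of differently numbered libraries ranged from -0.09 to 0.08. No label ties equal numbers to a litter or day, and with so few libraries these correlations cannot exclude such a tie. Nid1 and Pcolce also lost their calls under the block alone (adjusted p = 0.0787 and 0.0592). Calls over all genes were 75 with plain moderation, 32 under the block and 54 to 158 without 1 library (lower: 63, 30 and 47 to 103; higher: 12, 2 and 7 to 55), and higher calls were 12 after rescaling to equal sums. The lower share of calls was 82.3%, and 65.2% without wild-type library 3. Substrate and partner genes called were 4 after rescaling, 4 with plain moderation, 3 under the block and 4 to 7 without 1 library. Apart from Yap1 and Wwtr1, the named single genes under these alternatives kept direction and side of the threshold in 378 values, lost the call in 32 and turned direction in 6. Losses under both other scalings were those of Col3a1 (adjusted p = 0.0517 and 0.057) and Fbn1 (0.0996 and 0.0533). Wwtr1 lost its call after rescaling (log2 -0.53, adjusted p = 0.0517), with plain moderation (log2 -0.51, adjusted p = 0.0636) and under the block (log2 -0.51, adjusted p = 0.108), and lay between log2 -0.55 and -0.46 without 1 library. Near-zero changes turned direction without 1 library for Adamts10 (-0.061 to 0.022), Adamtsl4 (-0.11 to 0.13), Timp2 (-0.024 to 0.23) and Timp1 (-0.11 to 0.14). The cause of these shifts was not tested. Depth limits the lowest members, since 1 fragment on 2 kb is worth 0.0323 to 0.0394 FPKM.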

Other observations

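Among the inhibitors beside the TIMPs, A2m, the gene of the broad protease inhibitor alpha-2-macroglobulin, was under the limit for testing and was picked out after its values were seen. It measured 0.195, 0.131 and 0.263 FPKM in wild-type libraries, and 0.719, 0.628 and 0.705 FPKM in knockout libraries, so that the genotypes did not overlap and the knockout mean was 348% of wild type, with no test.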
